A study of Bos taurus with 5 samples.

Results

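Translation factors load, start, move and release the ribosome, and cytosolic tRNA synthetases attach amino acids to tRNAs for it. A gene was counted in this set where its symbol was that of an initiation factor (EIF followed by a digit), an elongation factor (EEF followed by a digit), the release factors ETF1 and GSPT, the ABCE1 and ABCF ATPases, a poly(A)-binding protein or its partners, GCN1, a cytosolic tRNA synthetase or an AIMP scaffold. EIF2AK2, EIF4E and the EIF4EBP genes were left out. This gave 55 of the 9022 genes in the table, with 82 transcripts on 23 chromosomes. The synthetase genes carried their older symbols, such as AARS for the gene now called AARS1.

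The samples were longissimus dorsi, the long back muscle, from 5 Jiaxian Red cattle aged 18 months, with 1 RNA library per animal and no treatment or second group. The series looks for genes that bear on muscle development, and its title names POLB. Values were FPKM, fragments per length of transcript and size of library, so levels of different genes can be set side by side. Each gene's value was the sum over its listed transcripts. Genes are compared within libraries, and the spread is that between libraries, in which animal and preparation cannot be told apart.

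The summed FPKM of a library lay between 193706 and 223251, and Spearman's rho between libraries across detected genes between 0.890 and 0.923. Of 9 skeletal muscle markers 7 were listed, all with a mean above 1 FPKM, and their sum, made up mostly of ACTA1, MYH7, MYBPC1 and the troponins, lay between 14825 and 16230 FPKM. CKM (muscle creatine kinase) and MB (myoglobin) were uneven, each with an SD of at least 1 on the log2(FPKM + 1) scale. CKM averaged 16.2 FPKM beside 5134 for ACTA1, and whether its value measures the whole gene was not tested. The endothelial markers, 5 of 5 listed, summed to 77.9 to 90.3 FPKM, and the fibroblast markers, 3 of 6, to 394 to 845. The leukocyte markers, 2 of 5, stayed at 3.97 FPKM or below, and of 4 blood markers HBB alone was listed, at 3.09 FPKM or below. The adipocyte markers were not analysed here. Bulk tissue cannot separate fewer cells of a type from less RNA in each.

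Protein synthesis begins when eIF2, carrying the initiator tRNA, joins eIF3 and the small ribosomal subunit and is brought to the capped mRNA by the eIF4 factors. Elongation factor 1 alpha then delivers each charged tRNA. Vertebrates have a general form of it, EEF1A1, and a form typical of mature muscle, heart and neurons, EEF1A2, which takes over in muscle after birth as known from rodents. Phosphorylation of the alpha subunit of eIF2 by kinases such as GCN2 slows initiation, a step by which cells answer amino acid shortage.

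Most of the 55 genes were well expressed. A mean of at least 1 FPKM, taken here as detected, was reached by 47 of 55 (85.5%), against 68.0% of all listed genes. Of the 55, 22 averaged 10 to 50 FPKM and 10 at least 50, against 1726 and 446 of all 9022 listed genes. The median of the detected members' mean levels was 19.6 FPKM, and that of all detected genes 6.38 FPKM. Together the 55 genes summed to 1967 ± 175 FPKM, which was 0.949% ± 0.0485 of a library's summed FPKM (SD, n = 5). EEF1A2 alone made up 20.04% ± 1.15 of the members' sum, and the 3 most abundant members, EEF1A2, EIF4G2 and EIF4B, 41.2% ± 1.53. These shares and ranks are over the genes analysed here, which include 7 of 14 eIF3 symbols, 4 of 10 elongation factor symbols and 4 of 16 symbols of poly(A) binding.

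**Figure D1:**
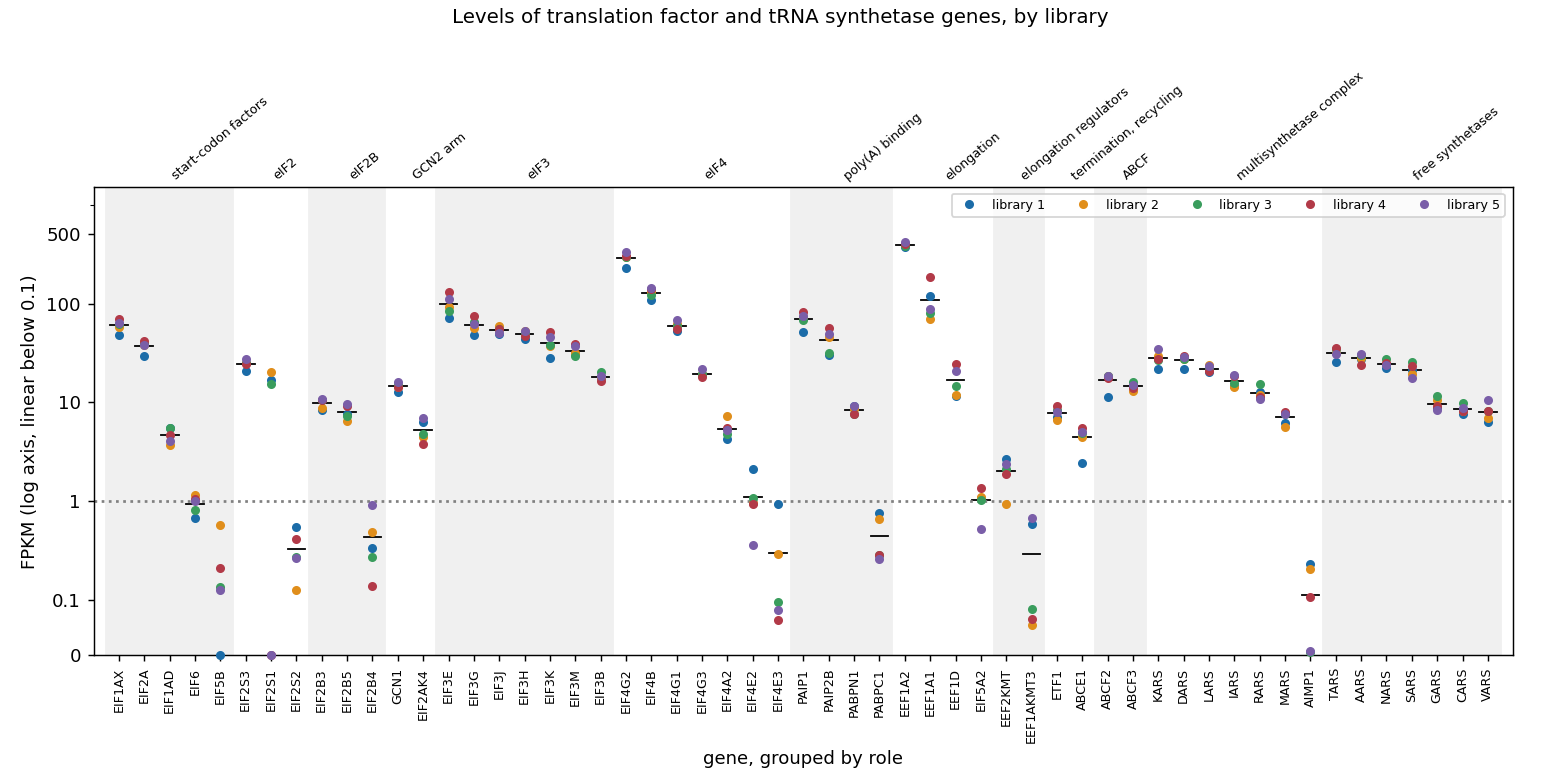
FPKM of the 55 genes (y axis, logarithmic above 0.1 and linear below) in each of 5 libraries (coloured points), grouped by role from initiation on the left to synthetases on the right; the short bars are means, drawn where no library was listed at 0, and the dotted line marks 1 FPKM. EEF1A2 and EIF4G2 stand highest, the 13 synthetases lie in a band with means of 7.06 to 31.6 FPKM, and EIF2S1 drops to 0 in libraries 4 and 5.

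Elongation was led by the muscle form of factor 1 alpha. Libraries 1 to 5 gave 370, 393, 385, 400 and 414 FPKM for EEF1A2, and 120, 69.6, 80.3, 186 and 87.9 FPKM for EEF1A1. EEF1A2 was therefore almost level across the animals, while EEF1A1 was high in libraries 4 and 1, and the ranges of the genes did not overlap. The paralogs are alike in coding sequence, and EEF1A1 has processed pseudogenes in mammals; how such reads were assigned is not given in the sources used here, so both levels carry that uncertainty. EEF1A2 made up 68.3% of the summed FPKM of both genes in library 4 and 85.0% in library 2, with a mean of 78.8% ± 6.86 (SD, n = 5). On the log2(FPKM + 1) scale EEF1A2 exceeded EEF1A1 by 1.93 ± 0.56 in 5 of 5 animals, which is 3.82-fold. The exact two-sided sign-flip permutation test over 5 libraries gave p = 0.0625, the smallest it can give, and 0.0729 after Benjamini-Hochberg adjustment over 7 pairs; a threshold of 0.05 cannot be reached with 5 animals.

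The contrast in spread between these paralogs was large. The SD of log2(FPKM + 1) was 0.06 for EEF1A2, smaller than in all but 1.34% of detected genes, and 0.56 for EEF1A1, larger than in 87.1% of them. The sum of the 3 listed fibroblast markers was also highest in libraries 1 and 4, at 845 and 769 FPKM, against 394 to 541 in the other 3. The collagen genes COL3A1 (625 and 609 FPKM, against 297 to 409) and COL1A2 (193 and 128, against 77.6 to 105) shared this order, while PDGFRA, a surface marker, had 25.9 and 32.1 FPKM there and 19.9 to 26.9 elsewhere. The part of fibroblast RNA in the EEF1A1 level was not tested.

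EEF1D, a subunit of the complex that recharges factor 1 alpha with GTP, was at 11.6, 11.96, 14.6, 24.5 and 21.0 FPKM in libraries 1 to 5. It thus lay higher in libraries 4 and 5 than in the other 3, with no overlap between these libraries, and its SD of 0.46 was the second highest among the elongation factors. EIF5A2, a paralog of the hypusine-bearing factor that eases peptide bond formation, averaged 1.02 ± 0.302 FPKM (SD, n = 5). Of the enzymes that methylate elongation factors, EEF2KMT, which acts on elongation factor 2, was at 2.67, 0.935, 2.12, 1.91 and 2.39 FPKM, lowest in library 2. EEF1AKMT3, which acts on factor 1 alpha, averaged 0.293 FPKM. EEF2, EEF1B2 and EEF1G were not analysed here.

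**Figure D2:**
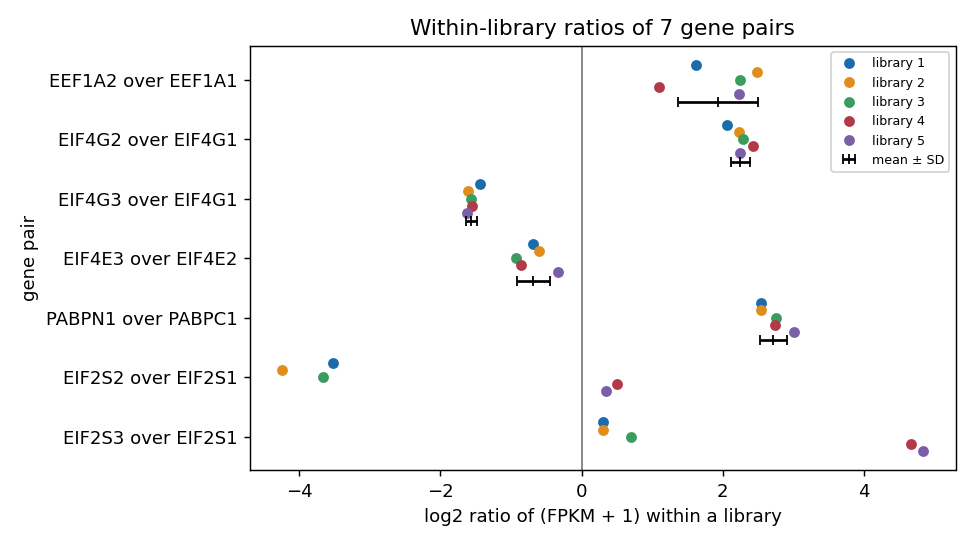
Log2 ratio of (FPKM + 1) between the members of 7 gene pairs (rows) in each library (coloured points), with the mean and SD over 5 libraries as a black bar for the 5 pairs without EIF2S1. EEF1A2 over EEF1A1 averages 1.93, EIF4G2 over EIF4G1 2.25 and EIF4G3 over EIF4G1 -1.56, and the pairs with EIF2S1 divide libraries 1 to 3 from libraries 4 and 5.

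Among the eIF4 factors the scaffold genes kept a steady order. EIF4G2 encodes a scaffold that lacks the part of EIF4G1 that binds the cap-binding protein. It was at 226, 294, 295, 300 and 330 FPKM in libraries 1 to 5. EIF4G1, the main scaffold, was at 53.3, 61.8, 59.7, 55.1 and 68.7 FPKM, and its paralog EIF4G3 at 19.1, 19.6, 19.5, 18.1 and 21.7 FPKM. EIF4G2 was above EIF4G1 and EIF4G3 below it in every library, with no overlap between the 3 ranges.

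The ratios between scaffolds varied less than most. EIF4G2 exceeded EIF4G1 by 2.25 ± 0.13 on the log2(FPKM + 1) scale, or 4.76-fold, and EIF4G3 over EIF4G1 was -1.56 ± 0.07, so that EIF4G1 was 2.95-fold higher (SD, n = 5; exact sign-flip permutation p = 0.0625 and adjusted 0.0729 for each). The SD of EIF4G3 itself, 0.09, was larger than in only 4.84% of detected genes. The transcript numbers of EIF4G3 had gaps, meaning that a number below the highest listed one had no row, so its sum may be partial, while those of EIF4G1 and EIF4G2 had none.

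EIF4B, which stimulates the helicase of the cap complex, was at 108, 131, 123, 140 and 142 FPKM in libraries 1 to 5, lowest in library 1. The helicase gene EIF4A2 was at 4.30, 7.37, 4.79, 5.46 and 5.28 FPKM. That low level came from a single listed transcript, EIF4A2-202, so it may not measure the whole gene. The variant cap-binding gene EIF4E2 was at 2.14, 0.971, 1.09, 0.930 and 0.360 FPKM, and EIF4E3 at 0.948, 0.295, 0.0969, 0.0647 and 0.0824 FPKM. Both were highest in library 1. EIF4E3 over EIF4E2 was -0.68 ± 0.24, with EIF4E3 lower in 5 of 5 animals (SD, n = 5; exact sign-flip permutation p = 0.0625, adjusted 0.0729). At such levels the ratio is set largely by the pseudocount of 1 FPKM: with 0.1 FPKM it was -1.82. Both genes had numbering gaps.

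eIF3, the large factor that holds the small subunit ready for mRNA, was represented by 7 subunit genes, all detected and all without numbering gaps. EIF3E was the highest in every library, at 70.9, 92.6, 84.6, 131 and 111 FPKM in libraries 1 to 5. EIF3G followed at 48.6, 56.4, 64.7, 75.0 and 61.6 FPKM, and EIF3J, a loosely bound subunit, at 49.7, 59.3, 55.9, 55.1 and 50.5. EIF3B, a core subunit, was the lowest in every library, with a mean of 18.1 ± 1.38 FPKM (SD, n = 5).

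The mRNA levels of these subunits were thus unequal. EIF3E was 4.01 times EIF3B in library 1 and 8.03 times in library 4. In the order of means, EIF3E, EIF3G, EIF3J, EIF3H, EIF3K, EIF3M and EIF3B, 5 of 6 neighbouring pairs had overlapping ranges, and only EIF3M and EIF3B did not. The subunits also differed in evenness. EIF3K was at 28.3, 36.9, 38.2, 51.4 and 45.4 FPKM, and together with EIF3E and EIF3G it was lowest in library 1 and highest in library 4. EIF3B, EIF3J and EIF3H ranged only 1.23-fold, 1.19-fold and 1.20-fold between animals, with SDs of 0.10, 0.11 and 0.11 on the log2 scale against 0.34 for EIF3E and 0.32 for EIF3K.

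The subunits of eIF2 showed the least even listing. EIF2S3, the gamma subunit that binds the initiator tRNA, was at 20.9, 25.2, 25.3, 24.2 and 27.7 FPKM in libraries 1 to 5. EIF2S1, the alpha subunit that stress kinases phosphorylate, had 16.7, 20.3 and 15.2 FPKM in libraries 1 to 3 and was listed at 0 in the other 2. EIF2S2, the beta subunit, was low throughout, at 0.551, 0.127, 0.275, 0.412 and 0.269 FPKM. Only EIF2S2-201 was listed for it, so this value may not measure the whole gene. The gamma gene was therefore even, and the alpha gene was listed well above 0 or at 0 by animal.

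EIF2S1 was the only detected member with an SD of at least 1 on the log2 scale (2.30), that is 1 of 47 (2.13%), against 3.63% of all detected genes. Its single listed transcript was EIF2S1-202, and a listed 0 can be a failed estimate, so the zeros do not show that the gene was silent. EIF2S3 was above EIF2S1 in 5 of 5 animals (exact sign-flip permutation p = 0.0625, adjusted 0.0729), by a log2 ratio of 0.30 to 0.70 in libraries 1 to 3 and of 4.66 and 4.84 in libraries 4 and 5. EIF2S2 was below EIF2S1 in libraries 1 to 3 and above it in libraries 4 and 5 (exact p = 0.25, adjusted 0.25).

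Genes of the exchange factor and the sensor arm around eIF2 were moderate. EIF2B3 and EIF2B5, subunits of eIF2B, which reloads eIF2 with GTP, had 8.40, 8.74, 10.6, 10.5 and 10.9 FPKM and 7.64, 6.44, 7.33, 9.16 and 9.61 FPKM in libraries 1 to 5, while EIF2B4, with a numbering gap, averaged 0.434 FPKM. Both detected subunits were above their mean in libraries 4 and 5. GCN1, which binds ribosomes and activates the kinase GCN2, was at 12.7, 14.4, 15.1, 14.3 and 16.1 FPKM in libraries 1 to 5. EIF2AK4, which encodes GCN2, was at 6.40, 4.49, 4.83, 3.82 and 7.01 FPKM, highest in libraries 5 and 1. GCN1 stayed above its kinase in every animal, although no test of this pair was made.

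Of the factors at the start codon, EIF1AX, which helps the small subunit scan, was at 47.7, 58.0, 61.9, 70.5 and 62.9 FPKM in libraries 1 to 5. EIF2A, a separate factor for initiation at unusual start sites and no part of eIF2, was at 29.6, 37.99, 39.7, 41.8 and 37.8 FPKM. Both were lowest in library 1 and highest in library 4. EIF1AD, a protein related to EIF1A, was at 5.46, 3.68, 5.48, 4.71 and 4.06 FPKM, with no such order. EIF6, which keeps ribosomal subunits apart, averaged 0.944 FPKM, and EIF5B, which joins the subunits, was listed at 0 in library 1 and did not exceed 0.574 in the rest. EIF6 and EIF5B each had 1 listed transcript, so these values may not measure the whole genes.

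The partners of poly(A)-binding protein were abundant. PAIP1, which promotes translation through that protein, was at 51.7, 73.1, 68.4, 81.6 and 74.0 FPKM in libraries 1 to 5. PAIP2B, an inhibitor of the same protein, was at 30.0, 45.4, 31.5, 56.4 and 49.4 FPKM, low in libraries 1 and 3 and higher in the other 3 without overlap. PABPN1, the nuclear poly(A)-binding protein whose repeat expansion causes a human muscular dystrophy, was at 9.21, 8.66, 7.69, 7.61 and 9.14 FPKM.

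PABPC1, the main cytoplasmic poly(A)-binding protein, was at 0.754, 0.660, 0.290, 0.284 and 0.264 FPKM. Only PABPC1-202 was listed for it, so this value may not measure the whole gene. PABPN1 over PABPC1 was 2.72 ± 0.19 on the log2 scale in 5 of 5 animals (SD, n = 5; exact sign-flip permutation p = 0.0625, adjusted 0.0729), a ratio that carries the same limit. With a pseudocount of 0.1 FPKM in place of 1 the mean ratio was 4.06.

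Termination and recycling genes were lower. ETF1, the release factor that reads stop codons, was at 7.19, 6.62, 8.39, 9.26 and 8.005 FPKM in libraries 1 to 5. ABCE1, the ATPase that splits ribosomes after termination, was at 2.46, 4.49, 4.85, 5.56 and 5.03 FPKM. ABCF2, a related ATPase, was at 11.3, 18.4, 18.6, 17.6 and 18.5 FPKM. Library 1 stood well below the other 4 for both ATPases. ABCF3, another member of the family, was even, at 14.7, 13.2, 16.2, 14.0 and 15.1 FPKM, and was not low in library 1.

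All 13 listed synthetase genes were detected, against 68.0% of all listed genes. The ranks below are over these 13 only. Of the symbols sought, 7 of 10 of the multisynthetase complex described below, AIMP1 included, and 7 of 10 outside it were listed. Within a library the highest was 4.36 to 5.48 times the lowest, against 4.01 to 8.03 times for the 7 eIF3 subunits. The means of the 13 synthetases ran from 7.06 FPKM for MARS to 31.6 for TARS, with a median of 21.5. The highest value of a gene across the animals was between 1.20 times the lowest, for LARS, and 1.67 times, for VARS. The highest of the 13 was TARS in libraries 2, 3 and 4, AARS in library 1 and KARS in library 5, and MARS was the lowest in every library. In the order of means, TARS, KARS, AARS, DARS, NARS, LARS, SARS, IARS, RARS, GARS, CARS, VARS and MARS, all 12 neighbouring pairs had overlapping ranges. In 4 of the 12 the first gene was still higher in 5 of 5 animals, among them RARS over GARS and IARS over RARS.

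Synthetases of the multisynthetase complex, the assembly that holds several of these enzymes together, were not set apart by level. KARS, for lysine, was at 21.9, 29.3, 27.1, 27.6 and 34.3 FPKM in libraries 1 to 5. DARS, for aspartate, was at 21.8, 27.5, 27.4, 29.6 and 28.5 FPKM, and LARS, for leucine, at 20.1, 24.0, 22.0, 20.9 and 23.1. IARS, for isoleucine, averaged 16.5 ± 2.13 FPKM and RARS, for arginine, 12.4 ± 1.82 (SD, n = 5). MARS, for methionine, was at 6.25, 5.70, 7.68, 7.94 and 7.72 FPKM, lower in libraries 1 and 2 than in the other 3. The scaffold gene AIMP1 stayed at 0.233 FPKM or below, so the listed sum of the scaffold was below that of every listed enzyme of the complex. Only AIMP1-201 was listed, so this value may not measure the whole gene.

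Of the enzymes outside the complex, TARS, for threonine, was at 25.7, 31.2, 34.7, 35.5 and 30.9 FPKM in libraries 1 to 5, and AARS, for alanine, at 27.3, 27.9, 30.1, 23.6 and 30.8. NARS, for asparagine, was at 22.0, 24.6, 27.6, 25.2 and 23.8 FPKM. VARS, for valine, had the greatest log2 SD of the 13, 0.25, and was at 6.39, 6.95, 8.25, 8.13 and 10.7 FPKM, with library 5 above the rest. SARS, for serine, was lowest in that library, at 21.1, 19.5, 25.5, 23.3 and 17.8 FPKM. GARS, for glycine, averaged 9.66 ± 1.31 FPKM and CARS, for cysteine, 8.51 ± 0.811 (SD, n = 5). GARS and KARS encode both the cytosolic and the mitochondrial enzyme.

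Spread between libraries was smaller than for most genes. The median SD of log2(FPKM + 1) was 0.19 over the 47 detected members and 0.25 over all 6136 detected genes. The members' median stayed below at each level of expression, at 0.21 against 0.27 for means of 1 to 10 FPKM, 0.17 against 0.22 for 10 to 50, and 0.20 against 0.25 above 50. Without library 1 the medians were 0.13 and 0.22. A library standing apart, by a Dixon gap ratio above 0.71, was found for 3 of 47 members (6.38%), against 7.37% of all detected genes. Low spread was not particular to the members. Among related genes described below, the median SD over 5 libraries was 0.12 for ribosome rescue and reinitiation and 0.17 for mTOR and cap-binding control. It was 0.18 for other charging genes, so these medians lay below the members' 0.19. For the integrated stress response it was 0.33.

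**Figure D3:**
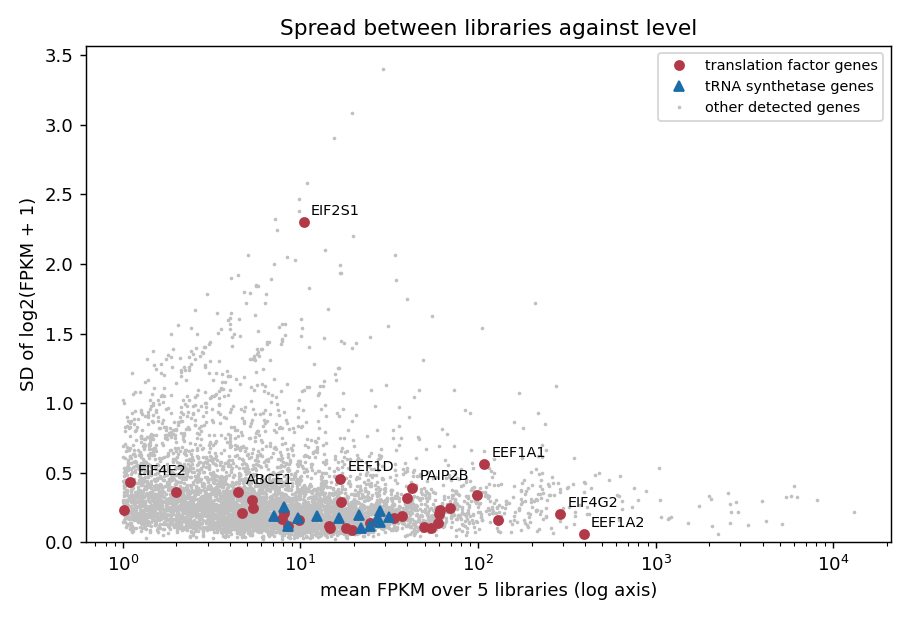
SD of log2(FPKM + 1) over 5 libraries (y axis) against mean FPKM (x axis, logarithmic) for detected genes, with the 34 translation factor genes as red circles, the 13 synthetases as blue triangles and other genes in grey. EIF2S1 stands at 2.30, EEF1A1 at 0.56 and EEF1A2 at 0.06, and all 13 synthetases lie at 0.25 or below.

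Library 1 was low for much of the set. Of the 47 detected members 37 lay below their own mean in it (78.7%), against 49.7% of all detected genes, and 27 had their lowest value there (57.4%), against 26.5%. By role, the members below their mean were 7 of 7 eIF3 subunits, 12 of 13 synthetases and 25 of the other 34 detected members, eIF3 included. The median deviation in library 1 was -0.14 on the log2 scale for the members and 0.0017 for all detected genes. In library 5, 35 members lay above their own mean (74.5%), against 53.4% of all detected genes, with a median deviation of 0.10. The 10 members above their mean in library 1 were ABCF3, EIF2S1, EIF2AK4, EIF4E2, EEF1A1, EIF5A2, EEF2KMT, RARS, PABPN1 and EIF1AD. Low values in library 1 were not confined to the set. Of the related genes described below, 4 of 4 detected other charging genes and 5 of 8 rescue and reinitiation genes lay below their mean there. Of mTOR and cap-binding control it was 4 of 9, and of the integrated stress response 3 of 6.

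Most members still lay below their mean in library 1 under other scalings, though with other numbers. With each library rescaled to one total, as TPM, 31 of 47 members lay below their mean in library 1, against 38.7% of all genes, and the medians were -0.06 and 0.10. With median-ratio size factors there were 38, against 53.0%. Under TPM the counts by role were 6 of 7 eIF3 subunits and 10 of 13 synthetases. Besides the fibroblast marker sum given above, highest in library 1, the muscle marker sum was 15541 FPKM there, within its range, and the mitochondrial share of summed FPKM was 11.97% in library 1, 15.3% in library 4 and 10.3% to 11.2% in the others. Of the muscle markers, MB was at 106, 133, 153, 214 and 766 FPKM in libraries 1 to 5, lowest in library 1 and highest in library 5. CKM was at 35.5, 14.9, 18.5, 9.67 and 2.50 FPKM, with the highest value in library 1 and the lowest in library 5. The part of these in the values of libraries 1 and 5 was not tested, and animal, dissection, RNA quality and library preparation cannot be told apart with 1 library per animal.

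**Figure D4:**
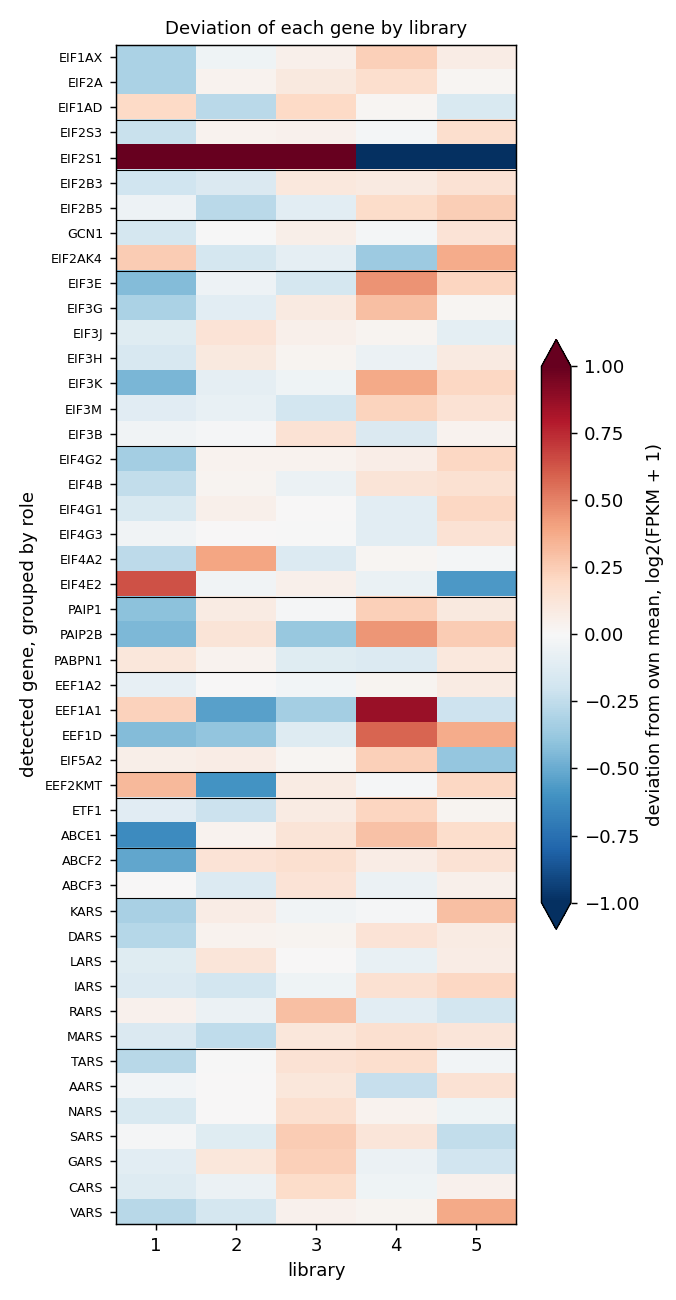
Deviation of each of the 47 detected genes (rows, grouped by role between black lines) from its own mean on the log2(FPKM + 1) scale in libraries 1 to 5 (columns), red above and blue below; the colours end at -1 and 1, past which EIF2S1 lies. The column of library 1 is blue for 37 of 47 genes, and EEF1A1 is red in libraries 1 and 4.

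In some genes the transcripts were less even than their sum. Of the 55 genes 17 had more than 1 listed transcript. The EIF4G1 total stayed within 1.29-fold, but EIF4G1-203 gave 7.11, 2.01, 1.66, 0 and 0 FPKM across libraries 1 to 5. EIF4G1-204 gave 0, 3.23, 12.05, 11.5 and 5.87 FPKM. The main transcript, EIF4G1-202, held 76.9% to 91.4% of the gene in every animal.

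For EIF4G3 the main transcript, EIF4G3-205, held 84.1% to 93.6% of the sum in libraries 1 to 4 and 49.9% in library 5, where EIF4G3-208 reached 36.7%. For GCN1, GCN1-202 held 93.1%, 98.0% and 96.2% in libraries 2, 3 and 5, but 55.8% and 63.4% in libraries 1 and 4, where the shorter-spanned GCN1-201 held 41.2% and 35.7%. These are estimates that split reads among overlapping transcripts with no error given, so the shares are descriptions. EIF4G2, EIF3E and EIF4B were instead uniform, with 1 transcript at 94.2% or more of the sum in every library.

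**Figure D5:**
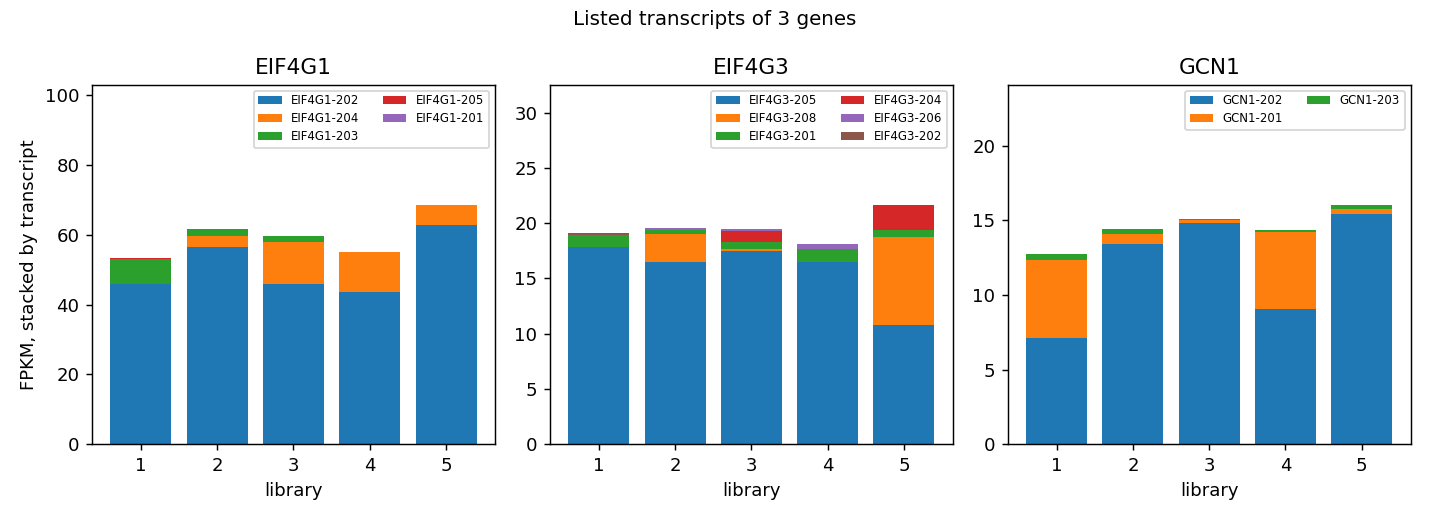
FPKM of the listed transcripts of EIF4G1, EIF4G3 and GCN1, stacked within each of 5 libraries (bars start at 0, each panel with its own y axis). The totals are similar between libraries, while EIF4G3-208 reaches 36.7% of the sum in library 5 and GCN1-201 41.2% and 35.7% in libraries 1 and 4.

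The genes were scattered over the genome, with 6 on chromosome 1. There EIF4G1 (82854035 to 82872768), ABCF3 (82960351 to 82968194) and EIF2B5 (83002134 to 83012323) lay within 158289 bases of each other, in the coordinates of the table. Their levels differed all the same, with means of 59.7, 14.6 and 8.04 FPKM. EIF2S3 and EIF1AX were on the X chromosome, EEF1A2 on chromosome 13 from 54151514 to 54159711 and EEF1A1 on chromosome 9 from 13011231 to 13017727.

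Genes outside the set that control these factors were mostly moderate. Of 15 genes of the mTOR and cap-binding control 9 were listed, all detected, and 1 had an SD of at least 1. EIF4E, the cap-binding protein, averaged 32.9 ± 3.88 FPKM, and PDCD4, an inhibitor of the helicase, 17.1 ± 2.13 (SD, n = 5). EIF4EBP2, which holds EIF4E away from the scaffolds, was at 2.25, 30.5, 0.863, 23.6 and 26.1 FPKM in libraries 1 to 5, low in libraries 1 and 3. Whether these EIF4EBP2 values measure the whole gene was not tested. MKNK1, a kinase of EIF4E, averaged 3.35 ± 0.804 FPKM.

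Of 13 genes of the integrated stress response, the programme set off by eIF2 phosphorylation, 6 were listed and detected, none with an SD of at least 1. PPP1R15A, which helps remove that phosphate, was at 16.03, 8.61, 17.6, 7.57 and 8.62 FPKM, high in libraries 1 and 3. EIF2AK2, another eIF2 kinase, averaged 8.09 ± 1.56 FPKM and the transcription factor DDIT3 6.79 ± 1.58, while PSAT1, an enzyme of serine synthesis, averaged 1.45 ± 0.757 (SD, n = 5). Of 7 other charging genes 5 were listed and 4 detected, led by FARSB, a phenylalanine synthetase subunit, at 28.4 ± 2.74 FPKM, inside the band of the 13 synthetases, SECISBP2, a selenoprotein factor, at 6.12 ± 0.998, and SEPSECS, which makes selenocysteine on its tRNA, at 4.73 ± 0.578. YRDC, a tRNA-modifying enzyme, averaged 1.59 ± 0.434 FPKM.

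Of 12 ribosome rescue and reinitiation genes 9 were listed and 8 detected, none with an SD of at least 1. HBS1L, which rescues stalled ribosomes, averaged 39.5 ± 6.42 FPKM, the scanning helicase DHX29 18.9 ± 1.17 and the reinitiation factor MCTS1 10.9 ± 1.11 (SD, n = 5). Among the 8 detected genes the log2 SD was greatest in ZNF598, a sensor of collided ribosomes, at 4.32 ± 1.06 FPKM, and NEMF, which acts on stalled subunits, at 6.95 ± 1.71. Of 9 genes that modify elongation factors only DPH3, which acts in making the diphthamide of elongation factor 2, was listed. It gave 0.0537 FPKM in library 1 and 4.36 to 9.35 elsewhere, with an SD of 1.32 on the log2 scale. Whether the DPH3 value in library 1 measures the whole gene was not tested.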

How the data were processed

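Total RNA of longissimus dorsi from 5 cattle was sequenced, 1 library each, prepared with a NEBNext kit per the labels' protocols. The authors gave FPKM for each transcript, per the file headers. The submitters' processing notes name UMD3.1, HTSeq 0.6.0 and DESeq2 1.10.1, with no role given; for the aligner and the FPKM program, a name is not given in the sources used here. Coordinates are the table's own, with no build claimed. The table held 13391 transcripts, and 13 of the 55 members had gaps in their transcript numbering, 10 of them detected. A transcript missing above the highest listed number leaves no gap, so sums of other members may be partial too.

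FPKM were summed per gene identifier and analysed as log2(FPKM + 1), a scale on which ratios understate the difference for low genes. Detection was a mean of at least 1 FPKM. The files give no counts, so depth is unknown and there are no counting intervals. Of 27 gene pairs, 7 had both members listed and were tested within libraries by an exact sign-flip permutation test, two-sided, with Benjamini-Hochberg adjustment. Values in every library were given for the 3 detected members with the highest mean in each role and the 2 with the greatest SD, for pair members and for members with a distant library; other lists were named by the same counts. Members and lists were chosen with earlier results of these data known. The statistics were tested on simulated data. Alternatives were a pseudocount of 0.1, detection at 5 FPKM, in every library or without limit, TPM, size factors, the highest transcript alone, EIF4E2 and EIF4E3 left out, and each library left out. Python 3.11.15, numpy 2.4.6, pandas 2.3.3 and matplotlib 3.10.9 were used. No value column was left unmapped.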

Additional observations from a re-analysis of the deposited data

Results flagged for a closer look

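In 3 genes library 1 lay far below the other 4, by a gap to the nearest library that was more than 0.71 of the whole range on the log2(FPKM + 1) scale. The gap ratio was 0.881 for ABCF2, 0.749 for DARS and 0.722 for ABCE1. Chance flags about 1 in 20 groups, and 7.37% of all detected genes were found apart in the same way.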

How the results depend on the processing

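Of 122 recomputed values under the alternatives, 119 kept their direction or stayed within 1.5 times. Among them were all 63 of the pair ratios, for which this means the same sign and no change in call. No call could change, because the smallest p of the exact sign-flip test, 0.0625 with 5 libraries and 0.125 with 4, is above the threshold. For pairs with the same direction in every library, only the highest transcript alone could change the sign. The count of 63 was thus largely fixed beforehand and says little about stability. Ratios with low genes moved in size: with a pseudocount of 0.1 FPKM, EIF4E3 over EIF4E2 averaged -1.82 (-0.68 with 1 FPKM), PABPN1 over PABPC1 4.06 (2.72) and EIF2S3 over EIF2S1 3.48 (2.16), and with TPM they averaged -1.47, 3.78 and 3.04. The count of members with an SD of at least 1 was 0 when 1 FPKM was required in every library, a limit that takes out EIF2S1 by its construction, and 1 otherwise. Members with a library standing apart numbered 5 with TPM, for which the cause was not tested, and 1 to 4 with single libraries left out, the lowest count being without library 3; the limit for 4 libraries is higher. The checks of library 1 were chosen after seeing the data: between 30 and 38 members lay below their mean in it, the lowest count being that of the 37 detected members without numbering gaps. The median deviation of the members in library 4 was 0.04 with the deposited FPKM and -0.07 with TPM. No paired comparison between groups of samples was possible because all libraries form 1 group. Without counts, depth sets no stated limit on any value here.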
